A study of Mus musculus with 6 samples.

Results

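Transcripts of 7 genes for peptide hormones and neuropeptides, Stc1, Pthlh, Nppb, Tac1, Penk, Qrfp and Gal, were described in the tumour cells of mouse melanomas, out of 31053 genes counted in single cells. The 7 were taken by symbol from the deposited matrices. They were chosen by their levels and shares of positive tumour cells in earlier results of these libraries, so their presence there is a description and not a finding.

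Peptide hormones and neuropeptides are made as longer precursors that enter the secretory pathway, are cut by proprotein convertases and trimmed and often amidated, and are then released to act on receptors, most of them G protein-coupled, on the same cell, on neighbours or at a distance. Several are known far from the tissue that gave them their name: parathyroid hormone-related protein is the tumour product behind much of the hypercalcaemia of malignancy, and enkephalins and tachykinins act on nociceptive neurons and on immune cells. A transcript count says nothing about cutting, release or the peptide itself.

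Cells of Yumm5.2, an established melanoma line of the mouse, were placed under the skin of C57BL/6 mice, 350000 per mouse, and tumours were collected at a volume of 0.5 cm3. Every line carried a short hairpin RNA against Cdkn2a (shCdkn2a), the controls included, together with shSlc39a9 #1 (hairpin 1), shSlc39a9 #2 (hairpin 2) or a control hairpin (shControl). Slc39a9 belongs to the ZIP genes, whose products carry zinc into the cytosol. Mice received 200 µg of anti-PD1, which blocks a checkpoint receptor of T cells, or of a control IgG, 3 times a week. There were 6 libraries, 1 for each of the 3 lines and each antibody: hairpin 1 with anti-PD1, hairpin 1 with IgG, hairpin 2 with anti-PD1, hairpin 2 with IgG, control with anti-PD1 and control with IgG. The labels state neither the age and sex of the mice nor the number of tumours behind each library, the lines were selected with antibiotics after infection with no cloning step stated, and no immune deficiency is stated for the mice.

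The libraries held 5095 to 8881 barcodes and 58859821 to 83204249 UMIs (unique molecular identifiers, each counting 1 captured transcript). Tumour cells were taken as barcodes with at least 3000 UMIs, at least 5 UMIs of Spp1, Grem1 and Cdkn2a together, none of Ptprc, Pecam1 or Cdh5 and at most 1 of Tyrobp. This gave 2789, 2587, 4491, 4124, 4264 and 4138 cells in the order above, 22393 in all, with median depths of 9931.5 to 14463 UMIs. The melanoma label rested on few markers: Pax3 was at 55.4 to 85.6 CPM (UMIs per 1000000 UMIs of the tumour cells) and Mitf at 14.2 to 21.3, Tyr did not pass 1.41 and Pmel did not pass 0.745, and Sox10 had 4 and Tyrp1, Dct and Mlana 2 UMIs each over all tumour cells. The summed list of 8 melanocyte markers was at 76.7 to 101 CPM in tumour cells and at 118 to 139 in myeloid cells, where Mitf made up 105 to 127. A list of 5 host fibroblast markers was at 132 to 191 CPM in tumour cells and at 30.03 to 44.4 in myeloid cells, most of it Cd34 (82.6 to 156 CPM in tumour cells), and the part of fibroblast RNA in the results was not tested. Xist was at 46.4 to 135 CPM in tumour cells and at 5.44 to 22.7 in myeloid cells, and 4 Y-linked genes summed to 1.57 to 3.01 in tumour cells and 272 to 315 in myeloid cells. Pairs of libraries shared 63.2% to 89.5% of the barcode names of the smaller one, with names running in order of depth in each library, and shared names were tumour cells in both libraries 0.0214 to 2.05 percentage points more often than the product of the 2 shares. The hairpins lowered their target: Slc39a9 was at 8.42 and 7.78 CPM in the hairpin 1 libraries and at 10.8 and 11.9 in the hairpin 2 libraries, against 20.7 and 22.4 in the control libraries (anti-PD1 before IgG), with log2 fold changes of -1.501 ± 0.10 for hairpin 1 (edgeR, adjusted p = 8.08e-05) and -0.98 ± 0.09 for hairpin 2 (adjusted p = 0.0026). Cdkn2a, targeted in every line and used in the gate, was at 235 and 218 CPM in the hairpin 1 libraries, at 336 and 287 in the hairpin 2 libraries and at 352 and 328 in the control libraries.

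Levels are in CPM, the UMIs of a gene per 1000000 UMIs of all tumour cells of a library. They compare libraries for 1 gene, and differences in capture between genes are not corrected. With 1 library for each line and antibody, they carry exact Poisson intervals at 95%, which cover counting error only. Tests compare the summed counts of 2 libraries of a hairpin line with the 2 of the control line, with antibody as a second term, so p-values measure the spread between libraries of a line and not between lines. Log2 fold changes are given ± their standard error, and a gene is called at an adjusted p under 0.05 over all 15545 genes tested. The hairpin contrasts share the 2 control libraries. All 7 genes passed the filter on low counts in each contrast. In sums over cells, fewer cells with a transcript and less of it per cell cannot be told apart. Shares of positive cells are given further on, with levels in positive cells for Nppb. A share also falls when the level per cell falls, so it does not fully separate the 2.

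RefSeq windows before the gene starts (GRCm38.p6) were at hand for 5 of the 7 genes. Those of Tac1, Nppb and Pthlh are shown, and those of Qrfp and Gal are not. Nppb occurred in cells with Tac1 and with Pthlh as described below, but also with Qrfp. A tie between letters in the windows and transcripts occurring together was not tested.
Tac1: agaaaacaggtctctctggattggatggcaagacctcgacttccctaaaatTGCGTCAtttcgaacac
Nppb: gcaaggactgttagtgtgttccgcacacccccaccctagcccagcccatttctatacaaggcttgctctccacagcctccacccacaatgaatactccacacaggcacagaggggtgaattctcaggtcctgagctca
Pthlh: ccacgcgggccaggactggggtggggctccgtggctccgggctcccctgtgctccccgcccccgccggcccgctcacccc
The windows are chr6:7554811-7554878 (plus strand), chr4:147985650-147985787 (plus strand) and chr6:147264184-147264263 (minus strand). Capitals mark a match to TGCGTCA, the cAMP response element known from the enkephalin gene, which was found once, in the Tac1 window, and which 0.256% of 32851 promoter windows cut to the same 68 bases hold. The windows of Nppb, Pthlh, Qrfp and Gal held no match on either strand to that motif, to the consensus element TGACGTCA, to the AP-1 site TGANTCA, to the M-CAT element CATTCC or to ACGTG, the core of hypoxia response elements. Of all windows cut to the 138 bases of Nppb, 3.59% hold TGANTCA and 7.49% hold CATTCC. A match is a description of letters and not a site in use.

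**Figure D1:**
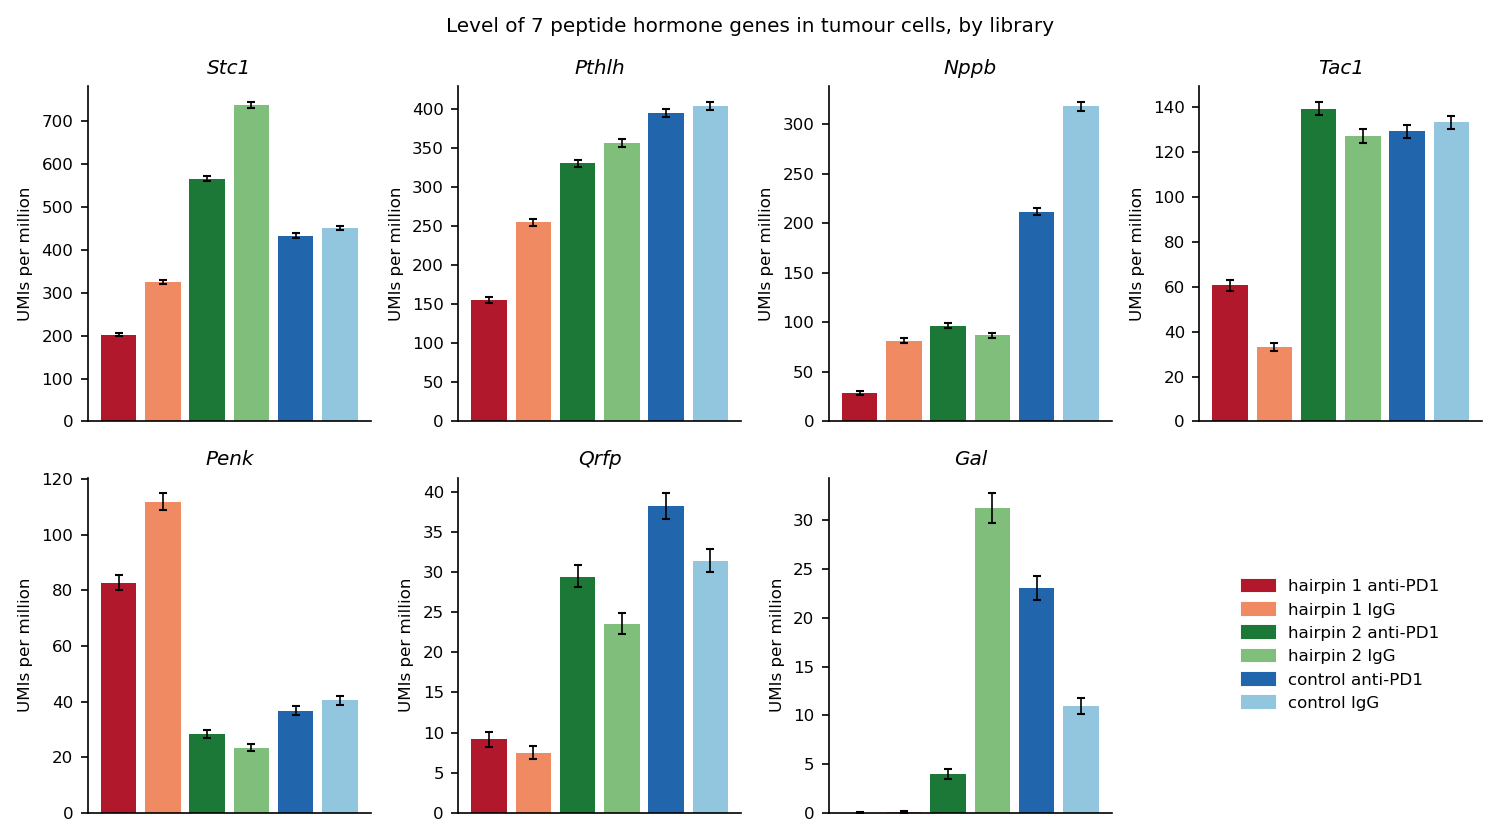
CPM in tumour cells (vertical axes, from 0) for each of the 7 genes, with 1 bar per library and exact 95% Poisson intervals, which cover counting error only. Stc1 was highest in the hairpin 2 libraries, Penk was highest in the hairpin 1 libraries, and Gal was at or near 0 in the hairpin 1 libraries.

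In the hairpin 1 line 6 of the 7 genes, Stc1, Pthlh, Nppb, Tac1, Qrfp and Gal, were called lower than in the control line and Penk was called higher. Of all genes tested, 43.4% were called in that contrast, 21.8% lower and 21.6% higher, so a call by itself was common there. The median log2 fold change was -1.62 over the 7 genes and about 0 over all genes. It was -0.05 over 22 other peptide hormone and neuropeptide genes that passed the filter. The 7 were chosen with results of these libraries known, so their medians are descriptions. In the hairpin 2 line Nppb, Penk and Qrfp were called lower and Stc1 higher, against a background of 15.3% called, 7.55% lower and 7.74% higher, and the median over the 7 was -0.45. Stc1 and Penk thus had opposite calls in the contrasts of the hairpins. Between the hairpin lines themselves, hairpin 2 was higher than hairpin 1 for Stc1, Pthlh, Tac1, Qrfp and Gal and lower for Penk, where 30.9% of all genes were called, 16.1% higher and 14.8% lower.

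Stc1 (ENSMUSG00000014813, protein-coding, mm10 chr14:69029238-69041804, plus strand) encodes stanniocalcin 1, a secreted glycoprotein first known from fish, where it lowers blood calcium. It was at 203 (198 to 207) and 325 (320 to 331) CPM in hairpin 1 tumours under anti-PD1 and IgG, at 566 (560 to 572) and 738 (731 to 745) in hairpin 2 tumours, and at 433 (428 to 439) and 451 (445 to 456) in control tumours. The lines did not overlap: both hairpin 2 libraries were above, and both hairpin 1 libraries below, both controls. The log2 fold change was -0.87 ± 0.13 for hairpin 1 (edgeR, adjusted p = 0.00214), 0.48 ± 0.13 for hairpin 2 (adjusted p = 0.049) and 1.35 ± 0.13 for hairpin 2 over hairpin 1 (adjusted p = 0.000717). The hairpin 2 call was close to the threshold. It was lost without the control IgG library (0.25, adjusted p = 0.275), without the hairpin 2 anti-PD1 library (0.48, adjusted p = 0.0896) and without the hairpin 2 IgG library (0.48, adjusted p = 0.163).

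Pthlh (ENSMUSG00000048776, protein-coding, chr6:147252101-147264183, minus strand) encodes parathyroid hormone-related protein, which signals through the receptor Pth1r. Its levels were 156 (153 to 160) and 255 (251 to 260) CPM in hairpin 1 tumours, 331 (326 to 335) and 356 (351 to 361) in hairpin 2 tumours and 395 (390 to 400.2) and 404 (399 to 409) in control tumours. The 3 lines were in the same order under both antibodies and their ranges did not overlap. The log2 fold change was -1.08 ± 0.15 for hairpin 1 (edgeR, adjusted p = 0.00164) and 0.80 ± 0.15 for hairpin 2 over hairpin 1 (adjusted p = 0.00813). Hairpin 2 over control gave -0.28 ± 0.15, which was not called (adjusted p = 0.24). That contrast was called when the hairpin 1 anti-PD1 library (-0.28, adjusted p = 0.0127) or the hairpin 1 IgG library (-0.28, adjusted p = 0.0133) was left out.

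Nppb (ENSMUSG00000029019, protein-coding, chr4:147985788-147987205, plus strand) encodes B-type natriuretic peptide, a hormone of the cardiac ventricle that lowers blood volume through the guanylyl cyclase receptor Npr1. It was at 28.8 (27.2 to 30.5) and 81.4 (78.9 to 84.0) CPM in hairpin 1 tumours, at 96.9 (94.4 to 99.4) and 87.3 (84.8 to 89.8) in hairpin 2 tumours, and at 212 (208 to 216) and 318 (314 to 323) in control tumours. All 4 knockdown libraries were below both control libraries. The log2 fold change was -2.43 ± 0.32 for hairpin 1 (edgeR, adjusted p = 0.0013) and -1.51 ± 0.31 for hairpin 2 (adjusted p = 0.0231). The hairpin 2 call was lost without the control anti-PD1 library (-1.48, adjusted p = 0.0688), the control IgG library (-1.53, adjusted p = 0.0535) or the hairpin 2 IgG library (-0.98, adjusted p = 0.0603). The difference between the hairpin lines, 0.92 ± 0.32, was not called (adjusted p = 0.0675). It was called without the control IgG library (0.93, adjusted p = 0.0459), the hairpin 1 IgG library (1.61, adjusted p = 0.00226) or the hairpin 2 IgG library (1.51, adjusted p = 0.0047), and also with no filter on low counts (0.93, adjusted p = 0.003) and without the 1% of cells highest in Nppb (1.31, adjusted p = 0.0273). That Nppb was low in the knockdown tumours was among the earlier results of these libraries, and is no independent support here.

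A list of 5 neutrophil markers moved with Nppb between the lines: their summed level in tumour cells was 9.56 and 11.2 CPM in hairpin 1 tumours and 30.2 and 19.1 in hairpin 2 tumours, against 54.1 and 64.1 in control tumours. Most of it was S100a8, at 7.14 to 61.1 CPM, while the defining receptors Csf3r and Cxcr2 did not pass 0.524 and 0.828 and Retnlg did not pass 0.242. The lines ran in the same order for Pthlh and Qrfp. Higher neutrophil markers were not particular to Nppb cells, as described below. The part of neutrophil RNA in the Nppb result was not tested.

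Tac1 (ENSMUSG00000061762, protein-coding, chr6:7554879-7565834, plus strand) encodes the precursor of substance P and neurokinin A, tachykinins that act on the receptors Tacr1 and Tacr2. It was at 60.6 (58.3 to 63.1) and 33.2 (31.6 to 34.8) CPM in hairpin 1 tumours, at 139 (137 to 142) and 127 (124 to 130.2) in hairpin 2 tumours, and at 129 (126 to 132) and 133 (130.5 to 136) in control tumours. The hairpin 1 libraries were both below the other 4, and hairpin 2 overlapped the control line. The log2 fold change was -1.62 ± 0.19 for hairpin 1 (edgeR, adjusted p = 0.000751), -0.05 ± 0.18 for hairpin 2 (adjusted p = 0.884) and 1.57 ± 0.19 for hairpin 2 over hairpin 1 (adjusted p = 0.00137).

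Penk (ENSMUSG00000045573, protein-coding, chr4:4133531-4138819, minus strand) encodes proenkephalin, the precursor of the opioid enkephalins. Its levels were 82.7 (80.0 to 85.5) and 112 (109 to 115) CPM in hairpin 1 tumours, 28.3 (27.0 to 29.7) and 23.5 (22.2 to 24.8) in hairpin 2 tumours and 36.7 (35.2 to 38.3) and 40.5 (38.9 to 42.1) in control tumours. Penk was the 1 gene of the 7 that was highest in the hairpin 1 line. The log2 fold change was 1.24 ± 0.14 for hairpin 1 (edgeR, adjusted p = 0.00074), -0.62 ± 0.15 for hairpin 2 (adjusted p = 0.032) and -1.86 ± 0.15 for hairpin 2 over hairpin 1 (adjusted p = 0.000349). The hairpin 2 call was lost with DESeq2 (-0.63, adjusted p = 0.0825) and without the control anti-PD1 library (-0.64, adjusted p = 0.0914), the control IgG library (-0.61, adjusted p = 0.114) or the hairpin 2 IgG library (-0.35, adjusted p = 0.12). It also turned on a few cells, as described below.

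Qrfp (ENSMUSG00000043102, protein-coding, chr2:31806166-31810580, minus strand) encodes pyroglutamylated RF-amide peptide, a hypothalamic peptide that raises food intake in rodents through the receptor Qrfpr. It was at 9.15 (8.25 to 10.1) and 7.51 (6.76 to 8.32) CPM in hairpin 1 tumours, at 29.4 (28.1 to 30.8) and 23.5 (22.2 to 24.8) in hairpin 2 tumours, and at 38.2 (36.6 to 39.8) and 31.4 (30.0 to 32.8) in control tumours. Under each antibody the lines ran hairpin 1, hairpin 2, control, from low to high. The log2 fold change was -2.15 ± 0.07 for hairpin 1 (edgeR, adjusted p = 2.8e-05), -0.45 ± 0.06 for hairpin 2 (adjusted p = 0.00756) and 1.70 ± 0.07 for hairpin 2 over hairpin 1 (adjusted p = 9.2e-05). The hairpin 2 call was lost without the control anti-PD1 library (-0.47, adjusted p = 0.0536) or the control IgG library (-0.44, adjusted p = 0.0697).

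Gal (ENSMUSG00000024907, protein-coding, chr19:3409915-3414544, minus strand) encodes galanin, a neuropeptide of central, enteric and endocrine cells that acts on the receptors Galr1, Galr2 and Galr3. It had 0 and 4 UMIs in hairpin 1 tumours, 244 and 1704 in hairpin 2 tumours and 1363 and 679 in control tumours. In CPM this was 0 and 0.0828 in hairpin 1, 3.98 and 31.2 in hairpin 2 and 23.0 and 10.96 in control tumours. Under anti-PD1 the control level was 317-fold that of a floor of 3 UMIs, set for the hairpin 1 library at 0. Under IgG the hairpin 1 level was 132-fold lower than the control level (51.5 to 488, counting error only). Both values treat UMIs as independent, but 1 cell held 688 of the 1363 control UMIs under anti-PD1 and 170 of the 679 under IgG. The floor and the interval are therefore no limits on the fold difference. Under anti-PD1 the share of cells with a UMI was 0% (up to 0.108%, counting error only) in hairpin 1 and 1.10% in control tumours. Hairpin 1 was called lower than the control line (edgeR, adjusted p = 0.00524), and hairpin 2 higher than hairpin 1 (adjusted p = 0.0101). That last call was lost without the hairpin 1 IgG library (adjusted p = 0.0618). The fitted fold changes of these contrasts depend on how a count of 0 is treated and are not given as sizes.

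For Gal in hairpin 2 against the control line the log2 fold change was -0.45 ± 0.84 and was not called (edgeR, adjusted p = 0.756). The value depended on which libraries were kept. It was 1.45 without the control anti-PD1 library (adjusted p = 0.00456) and 1.42 without the hairpin 2 anti-PD1 library (adjusted p = 0.0032), but -2.59 without the control IgG library (adjusted p = 0.00147) and -2.56 without the hairpin 2 IgG library (adjusted p = 0.00319).

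Pooling both hairpins against the control line called 0 of the 15545 genes by edgeR (0%), while 3077 had an unadjusted p under 0.05 and DESeq2 called 1132. None of the 7 was called by edgeR, where Nppb had the lowest p (-1.90 ± 0.44, adjusted p = 0.164), while DESeq2 called Nppb (-1.91, adjusted p = 0.000405). Anti-PD1 against IgG called 0 genes by edgeR (0%), with 118 at an unadjusted p under 0.05 and 0 by DESeq2. None of the 7 was called, and their log2 fold changes lay between -1.69 and 0.31. Within lines, Qrfp was the 1 gene with nearly the same difference in each, at 0.28, 0.32 and 0.28 on the log2 scale in hairpin 1, hairpin 2 and control tumours, each from a pair of single libraries. Gal differed by -2.97 in hairpin 2 tumours and by 1.07 in control tumours. The test of whether the antibody difference itself differed between knockdown and control lines called 0 of 16165 genes by edgeR (0%), with 44 at an unadjusted p under 0.05 and 0 by DESeq2. The pooled, anti-PD1 and interaction fits had no term for the line. Their spread thus holds the difference between the hairpin lines, which widens it, and counts of 0 do not show that nothing changed. Fits with the line as a block are given further on.

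**Figure D2:**
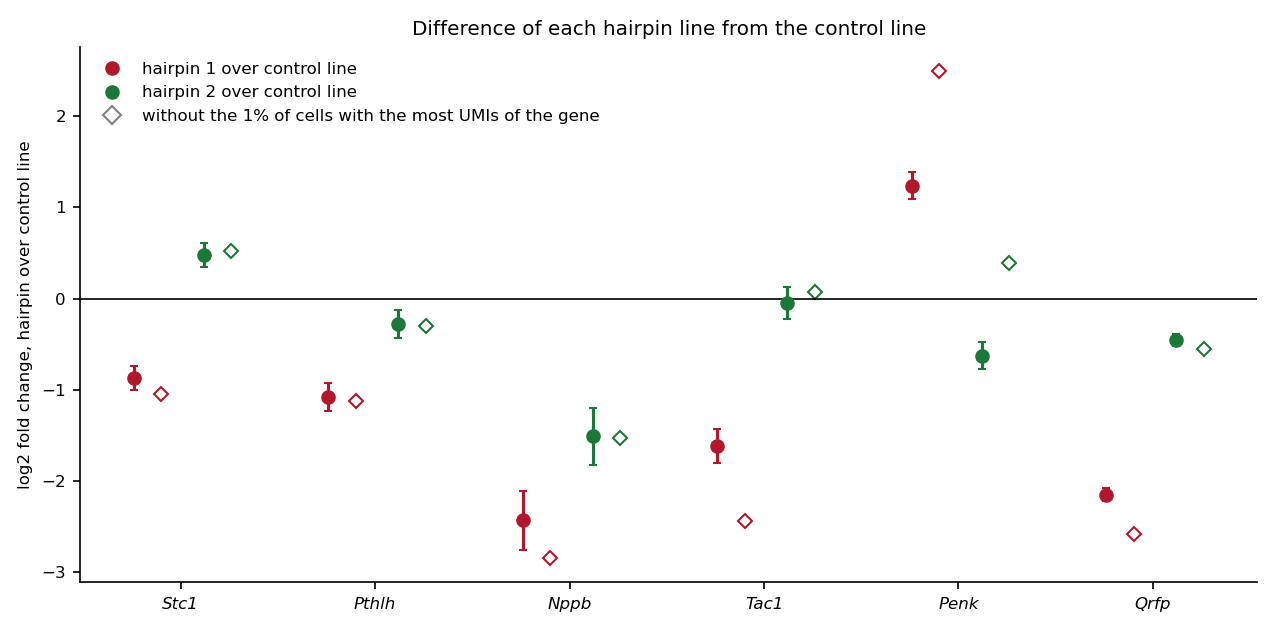
Log2 fold change of each hairpin line over the control line for the 6 genes other than Gal. Circles show all tumour cells with standard errors from edgeR, and diamonds the fit with the 1% of cells of each library with the most UMIs of that gene left out of its row. The hairpin 2 value for Penk lay at -0.62 with all cells and at 0.39 without those cells, while each hairpin 1 value stayed on its side of 0.

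The 7 transcripts were found in very different shares of the tumour cells. To compare libraries at equal depth every cell was thinned at random to 3000 UMIs. Shares of cells keeping at least 1 UMI were set beside those of myeloid cells (at least 1 UMI of Ptprc and at least 5 of Tyrobp, 312 to 574 cells per library). These serve as a rough guide to what free RNA adds. Whether myeloid cells make these transcripts themselves, or share barcodes with tumour cells, was not tested. Before thinning, median depths were 9931.5 to 14463 UMIs in tumour cells and 5538 to 6793 in myeloid cells.

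Stc1 was kept in 19.6% and 27.2% of hairpin 1 cells, 38.9% and 49.7% of hairpin 2 cells and 34.2% and 37.0% of control cells, against 0.935% to 8.01% of myeloid cells. Pthlh was kept in 24.8% and 29.0% of hairpin 1 cells, 37.3% and 39.7% of hairpin 2 cells and 40.0% and 39.2% of control cells, against 1.495% to 5.85% of myeloid cells. Unthinned, Stc1 was seen in 35.7% to 68.3% of the tumour cells of a library and Pthlh in 49.01% to 63.7%. These were the 2 most widely found of the 7 in every library. The cells gated by Pecam1 and Cdh5 formed an endothelial gate of 51 to 114 cells per library. In them Stc1 was at 201 to 1105 CPM and Pthlh at 242 to 521 CPM. Cdkn2a was at 42.4 to 253 CPM in that gate, at 218 to 352 in tumour cells and at 31.1 to 54.7 in myeloid cells. Summed Y-linked genes were at 25.8 to 72.9 CPM there, at 1.57 to 3.01 in tumour cells and at 272 to 315 in myeloid cells. Xist was at 13.2 to 43.4 CPM there, at 46.4 to 135 in tumour cells and at 5.44 to 22.7 in myeloid cells. The part of tumour RNA or doublets in the Stc1 and Pthlh values was not tested.

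Nppb was kept in 4.30% and 7.58% of hairpin 1 cells, 11.7% and 12.7% of hairpin 2 cells and 21.6% and 25.1% of control cells, and in 0.187% to 3.23% of myeloid cells. Among cells with at least 1 UMI before thinning, Nppb was also lower per cell, at 190 and 310 CPM in hairpin 1, 294 and 242 in hairpin 2 and 438 and 596 in control tumours. Both the share of positive cells and the level within them were lower in each knockdown library than in each control library.

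Tac1 was kept in 3.05% and 3.09% of hairpin 1 cells, 9.93% and 12.4% of hairpin 2 cells and 9.55% and 10.4% of control cells, against 0.187% to 2.79% of myeloid cells. Qrfp was kept in 1.83% and 1.51%, 5.79% and 4.70%, and 7.15% and 6.55% of the cells of the same libraries, against at most 0.744% of myeloid cells. In both genes the counting intervals of the hairpin 1 libraries lay below those of the other 4.

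Penk was kept in 11.6% and 11.9% of hairpin 1 cells, 4.61% and 5.09% of hairpin 2 cells and 3.68% and 4.01% of control cells, against 0.248% to 1.10% of myeloid cells. Unthinned, 10.9% and 11.7% of hairpin 2 cells and 7.55% and 8.87% of control cells held it. The share was above both control libraries in each knockdown library, although the summed level in hairpin 2 was below them. After thinning the counting intervals of hairpin 2 and control overlapped (4.01% to 5.26% in hairpin 2 and 3.14% to 4.29% in control tumours under anti-PD1).

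Gal was the rarest. Before thinning it was seen in 0 of 2789 hairpin 1 anti-PD1 cells, which allows a share of cells with a UMI of up to 0.108% (3 counts, counting error only), and in 2 of 2587 hairpin 1 IgG cells (0.0773%). It was seen in 35 (0.779%) and 99 (2.40%) hairpin 2 cells and in 47 (1.10%) and 38 (0.918%) control cells. Myeloid cells held it in 0% to 1.60%. Their share was above that of tumour cells in both hairpin 1 libraries, where Gal in tumour cells is therefore not told apart from background, and below it in the other 4. After thinning, the share was 0% in both hairpin 1 libraries, 0.356% and 1.41% in hairpin 2 and 0.516% and 0.483% in control tumours, against 0% to 0.962% of myeloid cells.

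**Figure D3:**
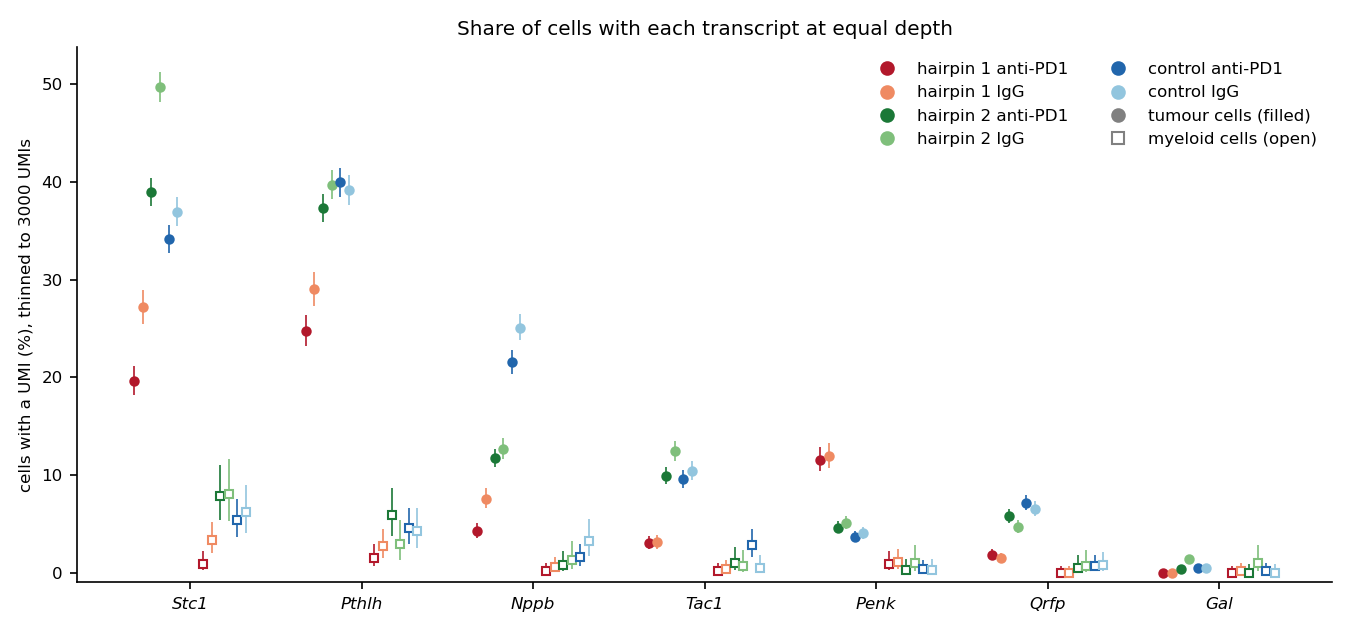
Share of cells with at least 1 UMI (vertical axis, %) after thinning each cell to 3000 UMIs, for tumour cells (filled circles) and myeloid cells (open squares) of each library, with exact Clopper-Pearson intervals at 95%. Tumour shares of Stc1, Pthlh and Nppb lay above those of myeloid cells in every library, and Penk stood highest in the 2 hairpin 1 libraries.

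Each gene's UMIs were concentrated in a minority of cells, least for Pthlh and Stc1 and most for Gal. The 1% of tumour cells with the most UMIs of a gene held 17.3% to 23.4% of all UMIs of Pthlh and 17.1% to 38.7% of those of Stc1. The same share of cells held 28.7% to 53.2% for Nppb, 29.2% to 51.3% for Qrfp, 38.4% to 81.8% for Tac1 and 38.5% to 76.9% for Penk. Those cells carried at most 3.41% of all UMIs of the tumour cells of their library in any of these genes. Depth thus differed far less than the transcript. Apart from Gal in the library where it was at 0, every gene was also seen in fewer cells than an even spread of its UMIs by depth would give, as for Pthlh in control IgG tumours with 63.1% against 95.7%.

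For Penk this differed between the lines. In hairpin 1 tumours 49 and 34 cells held 50% of all Penk UMIs, with at most 97 and 283 UMIs in a cell, and in hairpin 2 tumours 30 and 61 cells did, with at most 139 and 60. In control tumours 8 cells under each antibody held 50%, and the single highest cells held 534 and 706 UMIs. With the 1% of cells highest in Penk left out of its row, the hairpin 2 line was called higher than the control line (0.39, edgeR, adjusted p = 0.023), the opposite of the result with all cells (-0.62). The same step took the hairpin 1 value to 2.49 (adjusted p = 2.6e-05). The direction of the hairpin 2 difference in Penk thus changed with whether those cells were counted.

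Gal UMIs of hairpin 2 and control tumours lay in very few cells. In the hairpin 2 anti-PD1 library 1 cell held 50% of the Gal UMIs, in hairpin 2 IgG 4 cells, in control anti-PD1 1 cell and in control IgG 3 cells. The highest cells held 123, 525, 688 and 170 Gal UMIs in that order, and in hairpin 1 tumours no cell held more than 3. Cells with at least 10 Gal UMIs numbered 4 and 26 in hairpin 2 tumours and 13 and 11 in control tumours, and they held 69.3%, 87.0%, 93.5% and 93.7% of the transcript.

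Tac1 was concentrated most in hairpin 1 anti-PD1 tumours, where 8 cells held 50% of its UMIs and 42 cells with at least 10 UMIs held 89.3%. In the other libraries it took 19 to 72 cells to reach 50%. The highest single Tac1 cells held 268 and 127 UMIs in hairpin 1, 749 and 289 in hairpin 2 and 388 and 336 in control tumours. For Nppb 26 and 88 cells of hairpin 1 tumours and 154 and 122 of hairpin 2 tumours held at least 10 UMIs, against 333 and 453 of control tumours, where the highest cell held 1125.

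**Figure D4:**
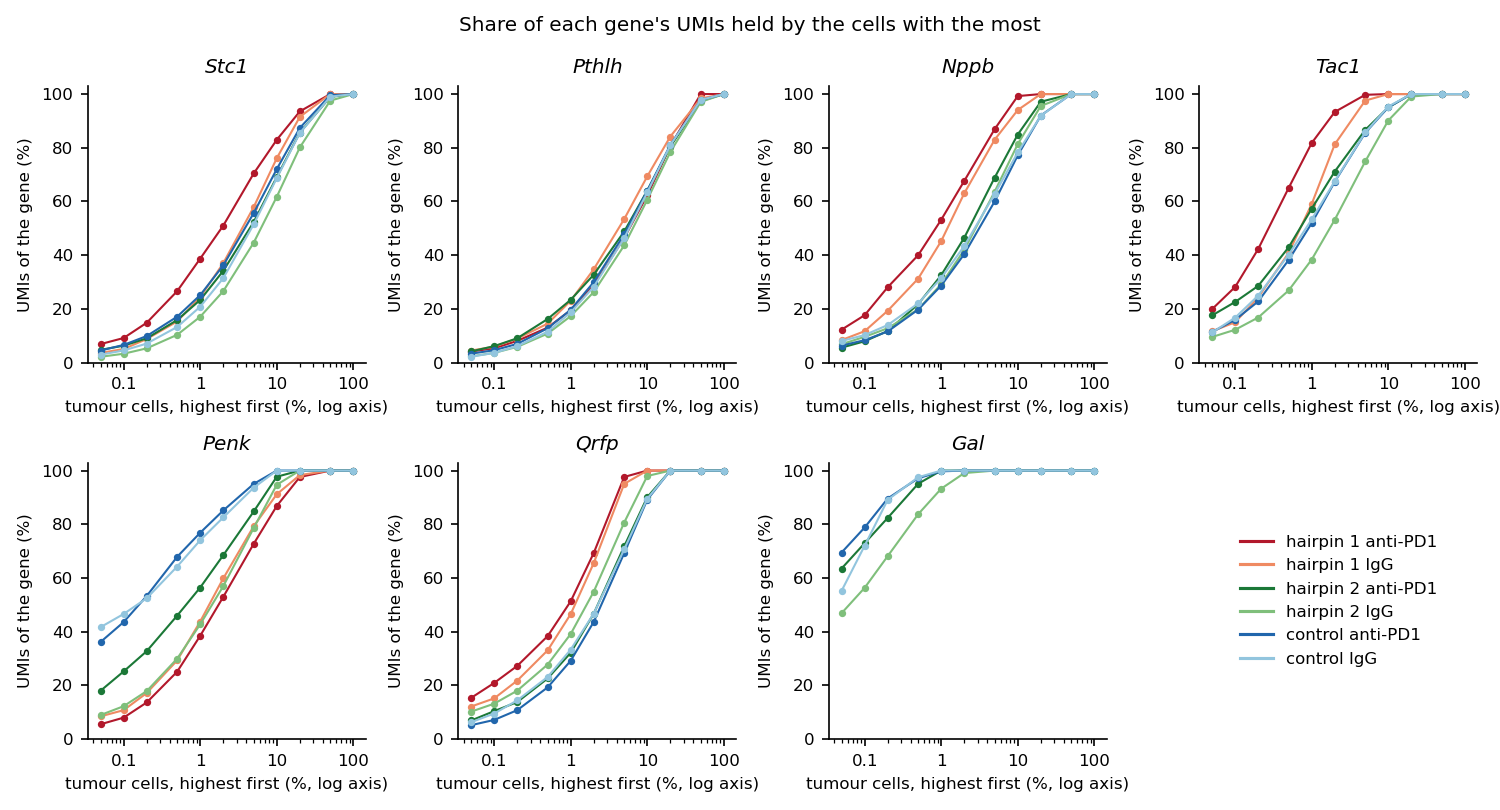
Share of each gene's UMIs (vertical axis, %) held by the tumour cells with the most, for increasing shares of cells (horizontal axis, %, log scale), with 1 line per library. Gal in the hairpin 1 libraries, with 0 and 4 UMIs, is not drawn. The Penk curves of the 2 control libraries start highest, and the Gal curves reach over 90% within 1% of cells.

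Cells with both Nppb and Qrfp, Pthlh or Tac1 numbered above the product of their shares, and cells with both Penk and Nppb, Tac1 or Qrfp numbered below it. For each pair, the number of thinned cells with both was set over the number expected from the product of the 2 shares in that library, as a description without a test, since cells of a library are not replicates. Nppb occurred with Qrfp at 1.79 to 5.47 times, with Pthlh at 1.52 to 2.32 times and with Tac1 at 1.37 to 3.83 times the product, above 1 in all 6 libraries, and so did Stc1 with Tac1 at 1.34 to 2.71 times. The highest values of Nppb with Qrfp and with Tac1 came from hairpin 1 anti-PD1 tumours, with 12 and 14 shared cells. Without thinning, Nppb lay at 1.51 to 2.73 times with Qrfp, 1.32 to 1.72 with Pthlh and 1.28 to 2.83 with Tac1. Qrfp with Tac1 lay at 0.927 to 1.93 times, above 1 in 5 of 6 libraries. Over all libraries 2083 cells held Nppb and Pthlh together where the product gives 1265.

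Penk stood apart from 3 of the others. It occurred with Qrfp at 0.202 to 0.508 times, with Tac1 at 0.203 to 0.689 times and with Nppb at 0.256 to 0.504 times the product, below 1 in all 6 libraries, with 18, 43 and 60 shared cells over all libraries. Qrfp and Stc1 also shared fewer cells than the product, at 0.259 to 0.699 times. Without thinning these 4 pairs stayed below 1 in every library, with Penk and Nppb at 0.688 to 0.839 times. Penk with Pthlh lay near 1, at 0.858 to 1.04 times.

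Gal had too few cells for such ratios in single libraries. Over all libraries 62 thinned cells held Gal and Stc1 and 51 held Gal and Pthlh, where the products give 50.0 and 45.6, and 0 cells held Gal and Qrfp, where the product gives 6.54. Most cells held few of the 7: after thinning 51.2% and 44.2% of hairpin 1 cells, 30.2% and 24.0% of hairpin 2 cells and 28.9% and 28.2% of control cells held none, and exactly 3 were found in at most 10.1% of the cells of a library.

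**Figure D5:**
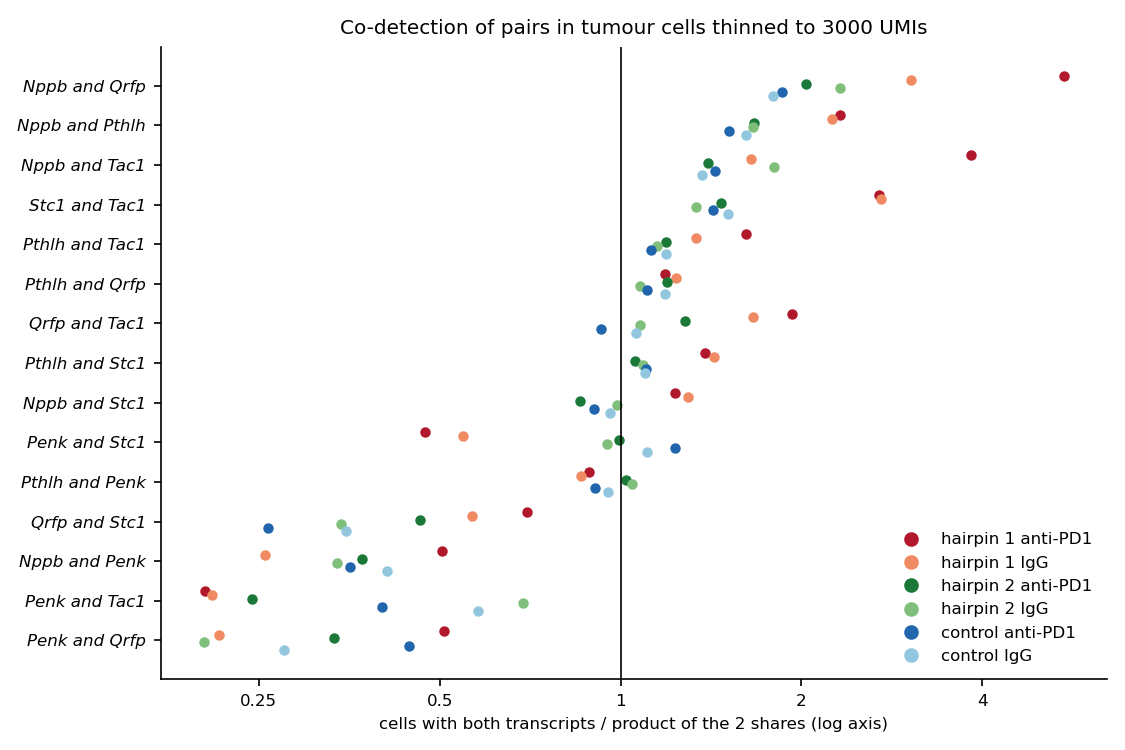
Cells with both transcripts of a pair over the number given by the product of the 2 shares (horizontal axis, log scale), after thinning to 3000 UMIs, with 1 point per library and the line at 1 marking the product. Pairs of Nppb with Qrfp, Pthlh and Tac1 lie right of 1 in every library, and Penk with Nppb, Tac1 and Qrfp lies left of 1 in every library.

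Genes most like each member were ranked by the mean over the 6 libraries of the correlation across tumour cells of log-scaled counts, among 11098 genes seen in at least 2% of the tumour cells of every library. These correlations share libraries and depth and are descriptions without a test. Nppb was most like AA467197 (mean r = 0.413), Pthlh (0.395) and Hbegf (0.387), a ligand of the EGF family. Pthlh was most like Nppb (0.395), Hbegf (0.384) and Akr1c18 (0.372), so each of this pair ranked among the first 2 for the other. Qrfp was most like Tinagl1 (0.402), Anxa8 (0.367) and Lgals7 (0.346), a galectin of stratified epithelia. Stc1 was most like Gja1 (0.409), the gap junction protein connexin 43, Sgip1 (0.384) and Ctsl (0.367), a lysosomal cysteine protease. Tac1 was most like Ptgs1 (0.2503), a cyclooxygenase, Crabp1 (0.229) and Rcan1 (0.216). Penk was most like Nrep (0.259), Postn (0.240), the matrix protein periostin, and Apod (0.199). Gal, at 0 in 1 library, could not be ranked.

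Lists of genes for tumour-cell states, taken over from earlier work on these libraries, were compared between 2 groups of cells for each transcript. Cells with the transcript kept a UMI of it after thinning, and cells without it had none before thinning. Cells that lost it in thinning were in neither group. The lists were summed on unthinned counts, so depth was not equal between the groups. In Qrfp cells the list led by Lgals7 and Aqp3, which also holds epithelial keratins, was higher in all 6 libraries, by 1.99 to 3.08 on the log2 scale. Aqp3, a water and glycerol channel of epithelia, was in 23.6% of Qrfp cells and 5.37% of cells without Qrfp in control anti-PD1 tumours, while the keratin Krt7 was in 0% of Qrfp cells in every library. Marker lists of keratinocytes (1.91 to 3.87) and of neurons and Schwann cells (1.07 to 2.94) were also higher in Qrfp cells in all 6 libraries. So was the list of host fibroblasts (0.37 to 1.06), and that of pericytes was higher in 5 of 6. The summed keratinocyte markers were at 0.367 to 1.32 CPM over all tumour cells, with Krt5 at 0, and their part was not tested. Nppb cells were higher for the same list in all 6 libraries (1.06 to 2.08), for the hypoxia list (0.24 to 0.79) and for the neutrophil markers (0.93 to 2.41), and lower for the matrix list (-2.12 to -0.96). Postn was at 0.610 and 0.940 CPM in Nppb cells of control anti-PD1 and IgG tumours and at 19.9 and 31.8 in cells without it. The neutrophil markers were also higher in all 6 libraries in Tac1 cells (0.37 to 3.78), Stc1 cells (0.26 to 2.56) and Pthlh cells (0.09 to 1.51). In Penk cells and in Qrfp cells they were higher in 1 of 6 libraries. Penk cells were higher for matrix genes in all 6 libraries (0.32 to 1.07), and lower for hypoxia genes (-0.79 to -0.26). Host fibroblast markers were lower in Penk cells in all 6 libraries (-0.97 to -0.21). Stc1 cells were lower for the Lgals7 and Aqp3 list (-1.93 to -1.19) and higher for inflammatory genes such as Saa3 and Cxcl1 (0.43 to 0.80). Cells with a transcript also had more UMIs in all before thinning, for Nppb a median of 15201 against 9555 in control IgG tumours, and the part of depth in these differences was not tested.

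Gal cells could be compared in the 3 libraries with at least 20 thinned positive cells, hairpin 2 IgG, control anti-PD1 and control IgG. There the neurofilament list was higher by 1.02 to 2.55 on the log2 scale. The neurofilament gene Nefm was in 39.7%, 45.5% and 30.0% of Gal cells and in 8.82%, 9.89% and 12.2% of cells without Gal in those libraries, in that order. The Gal values rest on 58, 22 and 20 Gal cells. A higher neurofilament list was not particular to Gal cells. It was also higher in all 6 libraries in Pthlh cells (0.26 to 1.99) and in Nppb cells (0.35 to 1.81). In Tac1 cells it was lower in all 6 (-2.65 to -0.80), and in Penk, Qrfp and Stc1 cells its direction differed between libraries.

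Of 16 receptor genes for these peptides and their relatives, 7 passed the filter on low counts in tumour cells. Npr3, the natriuretic peptide clearance receptor, was at 24.5 to 46.4 CPM, Npr2 at 14.8 to 29.9, Npr1 at 4.80 to 5.92 and Tacr3 at 4.26 to 8.14. Pth1r did not pass 0.363, and Qrfpr, the galanin receptors and the opioid receptors did not pass 0.244. In the hairpin 1 line 0 were called higher and 1 lower, Npr2 (-0.38 ± 0.09, edgeR, adjusted p = 0.0111). In the hairpin 2 line 2 were called higher, Tacr3 (0.79 ± 0.13, adjusted p = 0.0123) and Npr2 (0.36 ± 0.08, adjusted p = 0.0311), and 0 lower. Over all genes tested, 43.4% were called for hairpin 1 and 15.3% for hairpin 2. Tacr1, the substance P receptor, was at most at 0.831 CPM in tumour cells, against 9.93 to 32.4 CPM in the cells gated by Pecam1 and Cdh5.

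Of 30 genes that cut, trim, amidate or break down peptides 27 passed the filter, of which hairpin 1 had 6 called higher and 10 called lower, and hairpin 2 had 2 called higher and 5 called lower. Of all genes tested, 43.4% were called for hairpin 1 and 15.3% for hairpin 2. The median log2 fold change of the 27 was -0.22 in hairpin 1 and -0.06 in hairpin 2, against about 0 over all genes. Cpe, which trims basic residues, was at 832 to 1319 CPM and Pam, which amidates peptides, at 215 to 315, while the neuroendocrine convertases Pcsk1 and Pcsk2 did not pass 0.226 and 1.30 and Furin was at 54.0 to 70.4. Mme, the peptidase neprilysin that breaks down enkephalins, tachykinins and natriuretic peptides, rose in both lines, by 1.54 ± 0.06 in the line with hairpin 1 (edgeR, adjusted p = 2.92e-05) and by 1.08 ± 0.06 with hairpin 2 (adjusted p = 0.00113). Qpct, which forms N-terminal pyroglutamate, fell by 1.31 ± 0.14 in the line with hairpin 1 (adjusted p = 0.00055) and by 1.07 ± 0.14 with hairpin 2 (adjusted p = 0.00585). Ece1, an endothelin-converting enzyme, fell by 0.81 ± 0.05 (adjusted p = 7.97e-05) and by 0.38 ± 0.05 (adjusted p = 0.00644). Pam fell by 0.54 ± 0.06 in hairpin 1 (adjusted p = 0.000623), and in hairpin 2 Scg5, a chaperone of Pcsk2, fell by 0.90 ± 0.15 (adjusted p = 0.0123).

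Of 19 genes of dense-core granules and regulated release 14 passed the filter, of which 3 were called higher and 4 lower for hairpin 1, and 1 in each direction for hairpin 2, with medians of -0.23 in hairpin 1 and -0.19 in hairpin 2. These counts stand beside 43.4% and 15.3% called over all genes for hairpin 1 and hairpin 2. Cadps, which primes dense-core vesicles, was higher in both lines, by 1.87 ± 0.11 in the line with hairpin 1 (edgeR, adjusted p = 7.29e-05) and by 0.80 ± 0.11 with hairpin 2 (adjusted p = 0.00832). Ptprn, a granule membrane protein, was lower in both, with log2 fold changes of -0.69 ± 0.08 (adjusted p = 0.000654) and -0.72 ± 0.08 (adjusted p = 0.00377). In hairpin 1, Syt1, a calcium sensor of vesicle release, rose by 1.85 ± 0.22 (adjusted p = 0.000859) and Rab3a fell by 0.51 ± 0.09 (adjusted p = 0.00401).

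Of 73 other peptide hormone and neuropeptide genes 22 passed the filter, of which 7 were called higher and 5 lower for hairpin 1, and 2 were called higher and 4 lower for hairpin 2, with medians of -0.05 in hairpin 1 and 0.03 in hairpin 2, where 43.4% of all genes were called for hairpin 1 and 15.3% for hairpin 2. The highest by CPM, with capture between genes not corrected, was Nucb2, the nesfatin precursor, at 69.7 to 77.9 CPM. No comparison of its level with those of the 7 is drawn, since the 7 were chosen by level. Called in the hairpin 1 line with the lowest p were Ucn2 (2.52 ± 0.22, edgeR, adjusted p = 0.000257), Cck (-2.88 ± 0.30, adjusted p = 0.00049), Edn1 (1.41 ± 0.18, adjusted p = 0.00106) and Edn2 (-3.80 ± 0.49, adjusted p = 0.00113). In the hairpin 2 line they were Agrp (1.18 ± 0.10, adjusted p = 0.0021), Edn2 (-5.13 ± 0.54, adjusted p = 0.00382), Adm (0.75 ± 0.11, adjusted p = 0.00869) and Edn1 (-1.33 ± 0.21, adjusted p = 0.0111). Edn1 and Edn2 encode endothelins, Agrp a melanocortin antagonist and Adm adrenomedullin. Edn1 was thus called higher in one hairpin line and lower in the other, and Edn2 had at most 1.15 CPM, with 1 library at 0.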

How the data were processed

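The deposited matrices held raw UMI counts per gene and barcode, made with Cell Ranger 7.0.1 on mm10 per the submitters' processing notes. Cell gates are given in the text. No doublet caller was run. Barcodes with Ptprc, Pecam1 or Cdh5, or with more than 1 UMI of Tyrobp, were left out by the gate. It had no condition on markers of fibroblasts, pericytes, Schwann cells or keratinocytes. Doublets of tumour cells were not removed. Counts were summed over the tumour cells of each library and tested with edgeR 4.0.16 (quasi-likelihood, TMM scaling, filterByExpr, Benjamini-Hochberg adjustment) in R 4.3.3, with line and antibody as terms (knockdown and antibody for the pooled contrasts), and with DESeq2 1.42.0 as an alternative. Each line and antibody had 1 library. The labels do not say that libraries came from separate animals, so p-values of the contrasts between lines measure a spread between libraries that may be technical. In the pooled, anti-PD1 and interaction contrasts, fitted without the line, the spread also holds the difference between the hairpin lines. The knockdown replicate numbers mark the hairpin, so same-numbered libraries share a line, and their deviations correlated at 0.818 over 15545 genes. Cells were thinned with seed 1. Intervals, at 95%, and floors of 3 counts cover counting error only. Scripts were tested on simulated data. Members and gene lists were chosen with earlier results of these data known. From the lists, up to 4 called genes with the lowest p per contrast were named, and otherwise the 2 with the highest level, and each member's 3 most similar genes. A few genes were named beyond this rule after their values were seen. Marker lists other than neurofilament genes are not reported here for Gal cells.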

Additional observations from a re-analysis of the deposited data

Results flagged for a closer look

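The contrast of each hairpin line with the control line gave a different effect in the 2 knockdown lines for 6 of the 7 genes, by the test of hairpin 2 against hairpin 1 (edgeR, adjusted p under 0.05), a contrast in which 30.9% of all genes tested were called. The log2 difference, hairpin 2 over hairpin 1, was 8.41 for Gal, 0.80 for Pthlh, -1.86 for Penk, 1.70 for Qrfp, 1.35 for Stc1 and 1.57 for Tac1. The Gal value is a fitted one against a library at 0 and is no size. Slc39a9 itself differed by 0.52 ± 0.10 in the same contrast (adjusted p = 0.00766), with less of it left in the hairpin 1 line, and its part in these differences was not tested. The line, its infection and its tumours cannot be told apart from the hairpin.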

How the results depend on the processing

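The 7 hairpin 1 calls held under every alternative run. Both hairpins together called 1132 genes with DESeq2 and 50 with no filter on low counts, against 0 in the edgeR fit. With the line as a replicate block, anti-PD1 against IgG called 0 genes (987 at an unadjusted p under 0.05) and its interaction with knockdown 1. With each line summed, knockdown called 0. Leaving out 1 library at a time gave 3793 to 6989 genes for hairpin 1, 509 to 3112 for hairpin 2, 2720 to 4358 for hairpin 2 against hairpin 1, and 0 for the other contrasts (the interaction could not be fitted without either control library). DESeq2 called 1926 genes for hairpin 2. Nppb was called in the pooled contrast with DESeq2 (-1.91, adjusted p = 0.000405; up to 0.930 in other alternatives).

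Values that changed sign when 1 library was left out ranged, in the pooled knockdown contrast, from -4.48 to 0.45 for Gal, -0.43 to 0.24 for Stc1 and -0.086 to 0.87 for Penk. For hairpin 2 they ranged from -2.59 to 1.45 for Gal and -0.29 to 0.23 for Tac1. For anti-PD1 they ranged from -2.93 to 2.18 for Gal, -0.57 to 0.064 for Pthlh, -0.81 to 0.13 for Stc1, -0.75 to 0.62 for Penk, -0.30 to 0.89 for Qrfp and -0.26 to 0.87 for Tac1. Without the 1% of highest cells, hairpin 2 gave 0.39 for Penk and 0.075 for Tac1, and its Stc1 call was lost (0.53, adjusted p = 0.0776). The Stc1 call was also lost with DESeq2 (adjusted p = 0.149), with relative log expression scaling (adjusted p = 0.0509) and without the Spp1, Grem1 and Cdkn2a condition (adjusted p = 0.0571). Where no reason is given, the cause was not tested. Of 126 levels under other gates, 108 stayed within their counting interval. Of 114 co-expression ratios, 50 were counted as moved without thinning and 64 as the same. Counts of 0 to 4 UMIs limit Gal in hairpin 1.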
